A study of Mus musculus with 12 samples.

Results

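The transcripts of caspases and of their partner and inhibitors were followed through terminal erythroid differentiation in mouse bone marrow. The 8 genes, matched by symbol in a table of 29838 genes, were Casp1, Casp2, Casp6, Casp8 and Casp9, the caspase-9 activator Apaf1, and the inhibitor of apoptosis (IAP) genes Xiap and Birc2. All 8 reached a value of at least 1 FPKM (fragments scaled to transcript length and to the library's mapped fragments) in at least 3 libraries and were among the 12994 genes tested. Erythroblasts were sorted by flow cytometry from the marrow of 8-week-old wild-type (WT) male C57BL/6 mice, for which no treatment is named, and each stage had 3 RNA sequencing libraries. Cells negative for the leukocyte markers CD45, CD11b and Gr1 and for the dead-cell dye 7-AAD were divided into proerythroblasts (Pro, high CD44 and low Ter119) and, among Ter119-positive cells, by CD44 and cell size into basophilic (Baso), polychromatic (Poly) and orthochromatic (Ortho) erythroblasts. Ortho replicates 2 and 3 carried only a general erythroblast label and were placed in Ortho by their titles. The labels do not say whether replicates came from separate animals, so the p-values measure the spread between these libraries, which may be technical.

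Caspases are proteases made as inactive precursors. Initiator caspases are switched on in protein platforms, caspase-9 in the apoptosome formed by Apaf1 and cytochrome c, caspase-8 at death receptors and caspase-2 in the PIDDosome. Effector caspases such as caspase-6 then cut cell proteins, among them nuclear lamins. Caspase-1 belongs to another branch, the inflammasome, where it matures interleukin-1β and cuts gasdermin D. In erythroblasts, limited caspase activity accompanies normal maturation, and the chaperone HSP70 is known to guard the erythroid transcription factor GATA1 against cleavage by caspases. Transcript levels, which were measured here, do not show whether a protease was active.

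Of the 8 genes, 4 differed between Ortho and Pro by a log2 fold change of at least 1 at a limma adjusted p under 0.05. Of these, 1 was higher and 3 were lower, where 6.33% and 23.8% of all genes tested were. Casp1 was higher in Ortho, and Casp2, Casp6 and Casp9 were lower. Under each of 3 other scalings of the libraries 3 of the 4 reached this fold change, as Casp1 stood at 0.74 with the libraries scaled to equal sums, and Casp9 at -0.76 with hemoglobin genes removed and -0.81 with every library centred on its median, all still past the test. Birc2 fell by less than that in the values as deposited, Casp8 and Apaf1 varied within a narrow range, and Xiap was highest in Poly but varied widely between replicates elsewhere. The plot of the 8 genes by stage gives every library.

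**Figure D1:**
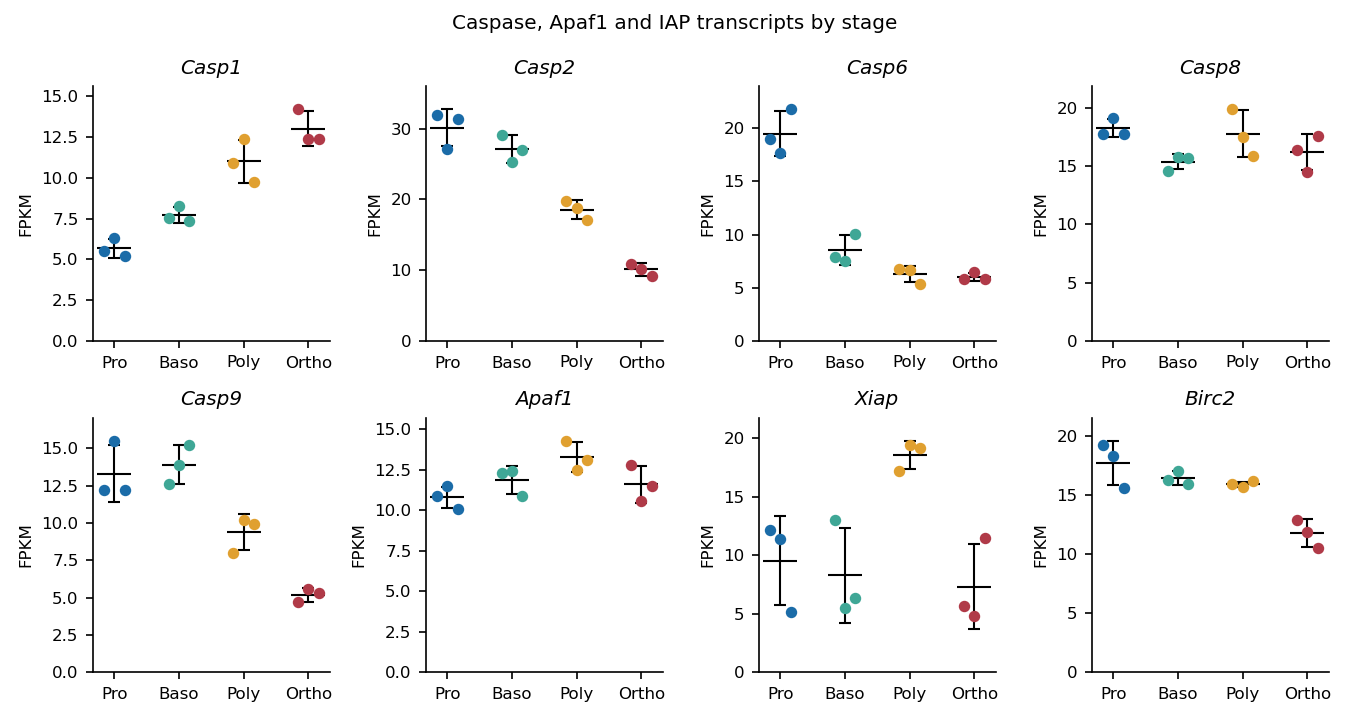
FPKM (vertical axis, linear from 0) of the 8 genes in Pro, Baso, Poly and Ortho; each point is 1 library, in the order of replicates 1 to 3 within a stage, the horizontal line is the stage mean and the bars show the SD (n = 3). Casp1 climbs from between 5.2 and 6.3 in Pro to between 12.35 and 14.23 in Ortho, Casp2 and Casp9 drop after Baso, Casp6 drops between Pro and Baso, and all 3 Xiap points of Poly lie above those of the other stages.

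The libraries correlated within stages with Pearson's r of 0.973 to 0.984 across genes, which are not independent replicates. Depth could not be recovered from FPKM, so counting error is unknown and precision rests on the 3 libraries per stage. All 9 erythroid markers examined were detected, and the hemoglobin share of summed FPKM went from 8.44% ± 1.95 (SD, n = 3) in Pro to 49.6% ± 2.74 in Ortho. FPKM is a share of a library's transcripts, so values of other genes depend on that rise. Between Ortho and Pro the median gene tested had a log2 fold change of -0.42, -0.72 after scaling the libraries to equal sums, and -0.03 after either removing the hemoglobin genes or centring every library on its median (median centring). In bulk samples fewer cells of a type and less RNA per cell cannot be told apart. Fold changes below are differences of log2(FPKM + 1), which understate changes of genes with low FPKM, and levels are FPKM.

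Caspase-2, an initiator caspase activated with Pidd1 and Cradd, was the most abundant of the 8 transcripts in Pro and in Baso. Casp2 lies on chromosome 6 of mm10 (42264985 to 42282508, plus strand), and shares part of its span with a predicted gene, Gm25108, on the same strand. The 250 bases upstream of its RefSeq start are shown because Casp2, Casp6 and Casp9 all fell, so that their upstream sequences can be set beside each other and beside that of Casp1, which rose. In these windows, from RefSeq on GRCm38.p6, capitals mark matches on either strand to CCNCNCCC, a pattern of the CACC type that erythroid KLF factors can bind. The Casp2 window is chr6:42264735-42264984, plus strand, with 1 match and 17 CpG dinucleotides.
Casp2: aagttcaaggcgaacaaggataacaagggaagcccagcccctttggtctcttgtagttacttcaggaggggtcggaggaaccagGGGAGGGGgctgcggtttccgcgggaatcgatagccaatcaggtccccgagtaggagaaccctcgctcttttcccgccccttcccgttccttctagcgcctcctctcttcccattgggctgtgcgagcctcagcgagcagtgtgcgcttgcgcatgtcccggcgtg

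Casp2 was measured at 31.91, 27.11 and 31.38 FPKM in the Pro libraries and at 29.14, 25.16 and 26.89 in the Baso libraries. It stood at 19.72, 18.77 and 17.07 in Poly and at 10.95, 10.18 and 9.1 in Ortho. Pro and Baso overlapped, all Poly libraries lay below both, and all Ortho libraries lay below Poly. Means were 30.1 ± 2.63, 27.1 ± 1.99, 18.5 ± 1.34 and 10.1 ± 0.929 FPKM (SD, n = 3), a 2.99-fold lower mean in Ortho than in Pro. Between Baso and Pro its log2 fold change was -0.15 (95% confidence interval -0.36 to 0.06, limma adjusted p = 0.205), with a sign that turned to 0.16 with hemoglobin genes removed and to 0.15 with median centring. With equal sums it was -0.32 and passed the test (limma adjusted p = 0.0221). Casp2 then fell by 0.52 on the log2 scale from Baso to Poly (limma adjusted p = 0.00804) and by 0.82 from Poly to Ortho (limma adjusted p = 4.67e-05). From Pro to Ortho it fell by 1.49 (SE 0.10, limma adjusted p = 9.51e-08). Casp2 moved from above 77.7% of the genes tested in Pro to above 59.2% in Ortho, ranked by mean FPKM.

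Caspase-9, the initiator of the mitochondrial pathway, is encoded by Casp9 on chromosome 4 of mm10 (141793612 to 141815976, plus strand). Cela2a and Ctrc on the other strand share part of this span, and whether the authors counted by strand is not given in the sources used here. Its upstream window, chr4:141793362-141793611 on the plus strand, held 4 matches to the pattern and 25 CpG dinucleotides.
Casp9: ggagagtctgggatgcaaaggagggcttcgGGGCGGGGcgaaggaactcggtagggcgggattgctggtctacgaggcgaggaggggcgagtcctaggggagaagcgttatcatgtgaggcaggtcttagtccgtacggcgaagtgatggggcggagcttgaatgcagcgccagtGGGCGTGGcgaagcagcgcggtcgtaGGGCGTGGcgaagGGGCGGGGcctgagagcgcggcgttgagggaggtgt

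Casp9 was at 12.22, 15.52 and 12.18 FPKM in Pro and at 12.6, 13.94 and 15.23 in Baso. It was at 7.99, 10.19 and 9.92 in Poly and at 4.7, 5.61 and 5.28 in Ortho. As for Casp2, Pro and Baso overlapped and the later stages were separated from them and from each other. The mean was 13.3 ± 1.92 FPKM in Pro and 5.19 ± 0.459 in Ortho (SD, n = 3), which was 2.56-fold lower. Casp9 differed little between Pro and Baso (log2 fold change 0.07, 95% interval -0.20 to 0.33, limma adjusted p = 0.666). That value was -0.10 with equal sums, and 0.36 and past the test with hemoglobin genes removed or median centring (limma adjusted p = 0.0361 and 0.0343). Casp9 fell by 0.53 on the log2 scale from Baso to Poly (limma adjusted p = 0.0214) and by 0.74 from Poly to Ortho (limma adjusted p = 0.000649). The step from Baso to Poly did not pass without Baso replicate 2 (limma adjusted p = 0.0617), Baso replicate 3 (0.0799) or Poly replicate 1 (0.0786). Against Pro, Casp9 fell by 0.46 in Poly (limma adjusted p = 0.00571) and by 1.20 in Ortho (SE 0.12, limma adjusted p = 3.48e-06). The Poly value did not pass with hemoglobin genes removed (-0.14) or with median centring (-0.22).

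Apaf1, the scaffold on which caspase-9 is activated, was steadier. Apaf1 lies on chromosome 10 of mm10 (90989311 to 91082770, minus strand) and shares part of its span with Gm25390 on the other strand. It was at 10.91, 11.46 and 10.14 FPKM in Pro, 12.32, 12.42 and 10.87 in Baso, 14.29, 12.46 and 13.1 in Poly, and 12.82, 10.56 and 11.53 in Ortho. Poly libraries all exceeded those of Pro and Baso, and Ortho overlapped every other stage. Apaf1 rose by a log2 fold change of 0.27 in Poly against Pro (SE 0.09, limma adjusted p = 0.0228), which did not pass without Poly replicate 1 (limma adjusted p = 0.0888), without Pro replicate 3 (0.0791) and with equal sums (0.382). In Ortho against Pro its log2 fold change was 0.09 (95% interval -0.11 to 0.30, limma adjusted p = 0.383), but -0.25 and past the test with equal sums, and 0.54 and past it with hemoglobin genes removed. The ratio of the 2 transcripts does not depend on the scaling of a library. Casp9 FPKM divided by Apaf1 FPKM stood at 1.23 ± 0.119 in Pro, at 1.18 ± 0.196 in Baso, at 0.711 ± 0.135 in Poly and at 0.452 ± 0.0822 in Ortho (SD, n = 3). Pro and Baso ratios overlapped, with 1.02 as the lowest of either, and the Poly and Ortho ratios did not overlap with them or with each other. These ratios were not tested.

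Caspase-8 is the initiator that death receptors recruit through Fadd. Casp8 lies on chromosome 1 of mm10 (58795374 to 58847503, plus strand) and shares part of its span with Gm37760 on the same strand. It was at 17.83, 19.14 and 17.79 FPKM in Pro, 14.63, 15.84 and 15.71 in Baso, 19.88, 17.52 and 15.87 in Poly, and 16.44, 14.54 and 17.63 in Ortho. Baso and Ortho libraries lay below every Pro library, by a margin of 17.63 against 17.79 in the case of Ortho, and Poly libraries lay above Baso by 15.87 against 15.84, while the other pairs of stages overlapped. None of its 5 comparisons passed the test. The log2 fold change against Pro was -0.23 in Baso (limma adjusted p = 0.0545), -0.04 in Poly (0.71) and -0.17 in Ortho (95% interval -0.37 to 0.04, limma adjusted p = 0.131). These signs depended on the scaling, and in Ortho the value was -0.52 with equal sums, 0.30 with hemoglobin genes removed and 0.23 with median centring, each past the test. Casp8 was the most abundant of the 8 transcripts in Ortho, with a mean of 16.2 ± 1.56 FPKM (SD, n = 3). Casp8 FPKM divided by Casp9 FPKM went from 1.38 ± 0.131 in Pro to 3.14 ± 0.484 in Ortho.

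Caspase-6, an effector caspase known for cutting lamin A, fell mainly on the step from Pro to Baso. Casp6 lies on chromosome 3 of mm10 (129901425 to 129914103, plus strand). Its upstream window, chr3:129901165-129901414 on the plus strand, held 1 match to the pattern and 11 CpG dinucleotides.
Casp6: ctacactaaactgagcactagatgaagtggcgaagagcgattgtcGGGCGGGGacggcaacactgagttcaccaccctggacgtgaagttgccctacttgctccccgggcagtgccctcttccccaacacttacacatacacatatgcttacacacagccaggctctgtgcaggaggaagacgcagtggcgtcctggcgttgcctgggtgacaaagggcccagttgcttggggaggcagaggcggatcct

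Casp6 was at 18.95, 17.68 and 21.81 FPKM in Pro and at 7.94, 7.53 and 10.13 in Baso. It was at 6.77, 6.65 and 5.39 in Poly and at 5.82, 6.49 and 5.78 in Ortho. Every Pro library thus stood far above the rest, Baso stood above Poly and Ortho, and Ortho lay within the Poly range. Means were 19.5 ± 2.11, 8.53 ± 1.4, 6.27 ± 0.762 and 6.03 ± 0.401 FPKM (SD, n = 3). Casp6 fell by 1.11 on the log2 scale in Baso against Pro (SE 0.12, limma adjusted p = 2.2e-05). Casp2 and Casp9 did not pass that comparison in the values as deposited. Under other scalings Casp2 passed as lower (equal sums) and Casp9 as higher (hemoglobin genes removed or median centring). The difference between the genes was not tested. The next step, -0.39 from Baso to Poly, did not pass (limma adjusted p = 0.0631), and from Poly to Ortho the value was -0.04 (95% interval -0.31 to 0.23, limma adjusted p = 0.86), which turned to 0.08 with hemoglobin genes removed and to 0.11 with median centring. Over all stages Casp6 fell by 1.54 (limma adjusted p = 5.12e-07) and its mean was 3.23-fold lower in Ortho than in Pro.

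Caspase-1, the protease of the inflammasome, had the lowest mean of the 8 in Pro and the highest after Casp8 in Ortho. Casp1 lies on chromosome 9 of mm10 (5298517 to 5307265, plus strand), with 1 annotated transcript. Its upstream window, chr9:5298267-5298516 on the plus strand, held no match to the pattern and 1 CpG dinucleotide.
Casp1: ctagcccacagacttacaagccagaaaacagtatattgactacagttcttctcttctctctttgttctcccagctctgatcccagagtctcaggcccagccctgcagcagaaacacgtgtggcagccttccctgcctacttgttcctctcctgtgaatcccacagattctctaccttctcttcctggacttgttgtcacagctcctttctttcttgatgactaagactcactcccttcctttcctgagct

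Set side by side, the 4 windows differed in CpG content. Of 32851 RefSeq promoter windows of the same length, 18.8% held no more CpG than that of Casp1, against 66.5% for Casp6, 78.3% for Casp2 and 90.4% for Casp9. Low CpG was not particular to Casp1, as the value was also 18.8% for Xiap. It was 49.6% for Casp8, 82.1% for Birc2 and 99.3% for Apaf1. For Xiap and Birc2 the window with the fewest CpG was taken, while 1 of 3 Xiap windows held 13 CpG and the other Birc2 window 31. CCNCNCCC was found in 45.9% of all these windows, so a match in the windows of the 3 falling genes is common. Among the other members it was in the windows of Apaf1, Birc2 and 1 of 3 Xiap windows, and not in that of Casp8. The GATA pattern AGATAA, found in 9.99% of windows, had a match only in the window of Casp8. A match is a description of letters and not a binding site.

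Casp1 was at 5.51, 6.3 and 5.2 FPKM in Pro and at 7.54, 8.29 and 7.36 in Baso. It was at 10.86, 12.36 and 9.71 in Poly and at 14.23, 12.35 and 12.42 in Ortho. Pro, Baso and Poly did not overlap with each other, and the highest Poly library just passed the lowest Ortho library. The mean of Ortho, 13 ± 1.06 FPKM, was 2.29-fold that of Pro, 5.67 ± 0.568 (SD, n = 3). Casp1 rose against Pro by log2 fold changes of 0.39 in Baso (limma adjusted p = 0.00772), of 0.84 in Poly (3.13e-05) and of 1.07 in Ortho (SE 0.10, limma adjusted p = 2.52e-06). The 3 values share the Pro libraries. With equal sums, the Baso value was 0.24 and did not pass (limma adjusted p = 0.0781). By single steps, Casp1 rose by 0.45 from Baso to Poly (limma adjusted p = 0.0214), which did not pass without Baso replicate 3 (limma adjusted p = 0.0745), Poly replicate 1 (0.066) or Poly replicate 2 (0.0766). The value from Poly to Ortho was 0.23 (95% interval 0.00 to 0.46, limma adjusted p = 0.147), and it passed with hemoglobin genes removed (0.36) or median centring (0.38).

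Markers of several other blood cell types moved in the same direction as Casp1 in the values as deposited, although the sort had removed cells with CD45, CD11b or Gr1. The summed FPKM of 12 neutrophil genes ran from 7780 to 9490 in the Pro libraries and from 15100 to 18800 in the Ortho libraries, and 11 of the 12 genes were higher in Ortho at a limma adjusted p under 0.05. Of 12 monocyte and macrophage genes, 7 could be tested and 5 were higher, and the sum of all 12 ran from 234 to 294 in Pro and from 484 to 572 in Ortho. All 9 B cell genes were higher, with sums of 64.3 to 113 in Pro and 163 to 211 in Ortho. Relative to the Pro mean, Casp1 stood at 1.36, 1.94 and 2.29 in Baso, Poly and Ortho, neutrophil genes at 1.66, 2.18 and 2.01, monocyte and macrophage genes at 1.25, 1.67 and 2.02, and B cell genes at 1.59, 2.17 and 2.36. T and NK cell genes reached 1.60 in Ortho, from sums of 22.2 to 32.9 in Pro and 39.9 to 45.2 in Ortho, with 4 of 9 tested and all 4 higher, while the defining T cell genes Cd3e and Cd3g did not exceed 0.05 FPKM in any library. Cd5l, a gene of marrow macrophages, did not exceed 0.42. Abundant genes weigh most in these sums. Ly6c2 alone was at 452.98, 376.45 and 378.12 FPKM in the Ortho libraries, Nkg7 at 36.37, 31.56 and 37.42, and S100a9 at 6687.02, 5209.9 and 6405.82. Genes of 1 list also moved unequally. Mpo went from 382.1, 482.62 and 401.02 in Pro to 624, 619.96 and 618.45 in Ortho, and Vcam1 from 2.33, 3.52 and 3.23 to 2.92, 2.06 and 1.78. Megakaryocyte and platelet genes went down to 0.422, with 1 of 8 higher and 6 lower. The 12 interferon-stimulated genes reached 6.29 in Ortho, with 7 of 11 tested higher and 1 lower. The part of these other cells in the values of Casp1 was not tested.

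**Figure D2:**
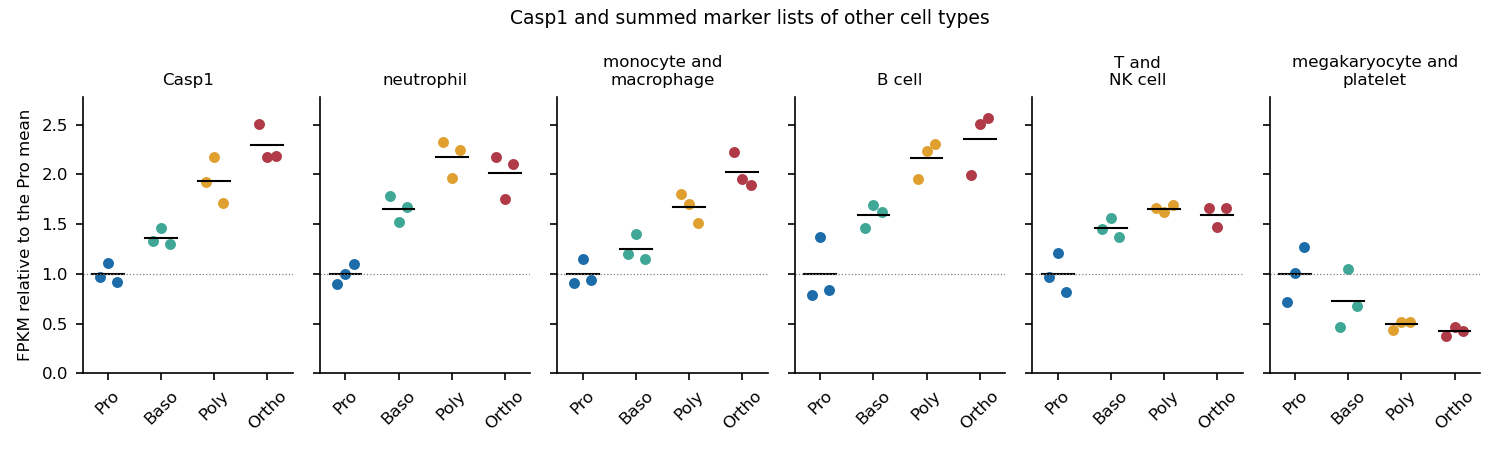
FPKM relative to the mean of the Pro libraries (vertical axis, linear from 0) of Casp1 and of the summed FPKM of 5 lists of marker genes in the 4 stages; each point is 1 library and the horizontal line the stage mean. Casp1 at 2.29 in Ortho lies between the lists for neutrophils at 2.01 and B cells at 2.36, and the megakaryocyte and platelet list goes down to 0.422.

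Within the pool of the 5 caspases, the summed FPKM went from 86.8 ± 1.35 in Pro through 72.6 ± 2.38 in Baso and 62.9 ± 4.27 in Poly to 50.5 ± 1.51 in Ortho (SD, n = 3). Shares of this pool do not depend on library scaling. Casp1 made up 6.53% ± 0.745 of it in Pro and 25.7% ± 1.38 in Ortho. Casp2 held 34.7% ± 2.75 in Pro and 37.3% ± 2.84 in Baso, where it led the pool, and 19.9% ± 1.58 in Ortho. Casp8 went from 21% ± 1.15 to 32.1% ± 2.81 and had the largest share in Ortho. Casp6 went from 22.4% ± 2.07 in Pro to 9.94% ± 0.567 in Poly and 12% ± 1.09 in Ortho, and Casp9 from 19.2% ± 1.42 in Baso to 10.3% ± 1.21 in Ortho. The shares are parts of the same sum, so a fall of some raises others. The share of Casp8 rose while its own log2 fold change in Ortho against Pro was -0.17 (limma adjusted p = 0.131). The shares were not tested.

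**Figure D3:**
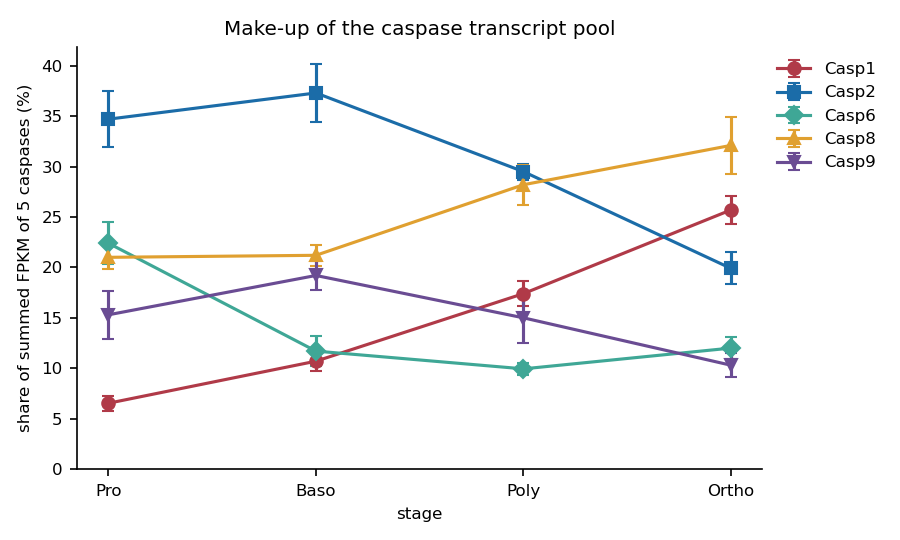
Share of the summed FPKM of 5 caspases (vertical axis, percent, linear from 0) held by each caspase in Pro, Baso, Poly and Ortho; points are means of 3 libraries and bars the SD. Casp2 leads in Pro at 34.7% and Casp8 in Ortho at 32.1%, and Casp1 goes from the smallest share, 6.53%, to 25.7%.

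Xiap encodes an inhibitor that binds caspase-9 directly. It lies on chromosome X of mm10 (42059679 to 42109656, plus strand), with 11 annotated transcripts. Xiap was at 12.17, 11.36 and 5.17 FPKM in Pro and at 12.99, 5.54 and 6.34 in Baso. It was at 17.17, 19.36 and 19.17 in Poly and at 5.7, 4.83 and 11.5 in Ortho. All 3 Poly libraries exceeded every other library, while each of the other stages held both libraries of 4.83 to 6.34 FPKM and libraries of 11.36 to 12.99. The mean was 18.6 ± 1.21 FPKM in Poly against 9.56 ± 3.83 in Pro, 8.29 ± 4.09 in Baso and 7.34 ± 3.63 in Ortho (SD, n = 3). The residual SD of Xiap within stages, 0.52 on the log2 scale, was larger than that of 96.5% of the genes tested and of 98.4% of the 1000 genes nearest to it in level. Residual SDs of the other 7 members were 0.10 to 0.15.

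This spread limits the comparisons of Xiap. It rose by a log2 fold change of 0.97 in Poly against Pro (SE 0.36, limma adjusted p = 0.0336) and fell by 1.31 from Poly to Ortho (SE 0.36, limma adjusted p = 0.0178). The first value was 0.62 without Pro replicate 3 and did not pass (limma adjusted p = 0.148), nor did it without Poly replicate 1, 2 or 3 (limma adjusted p = 0.0559, 0.0767 and 0.0744) or with equal sums (0.0709). The second did not pass without Ortho replicate 1 or 2 or Poly replicate 2 or 3 (limma adjusted p = 0.064, 0.0769, 0.0529 and 0.0518). Without a filter on low values neither passed (limma adjusted p = 0.106 and 0.0762). From Baso to Poly the value was 1.16 and did not pass (95% interval 0.37 to 1.95, limma adjusted p = 0.0584), and it did when replicate numbers were blocked in a fit of the 3 later stages (limma adjusted p = 0.0445) but not with the same block over all 12 libraries (0.0705). It was 1.50 without Baso replicate 1 (limma adjusted p = 0.0282). In Ortho against Pro the log2 fold change was -0.35 with a 95% interval of -1.14 to 0.44 (limma adjusted p = 0.397), and its sign turned with hemoglobin genes removed (0.09) and with median centring (0.05).

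Birc2 encodes cIAP1, a ubiquitin ligase of the TNF receptor complex. It lies on chromosome 9 of mm10 (7818227 to 7837064, minus strand). Birc2 was at 19.19, 18.28 and 15.56 FPKM in Pro, 16.26, 17.02 and 15.87 in Baso, 15.91, 15.73 and 16.2 in Poly, and 12.91, 11.92 and 10.5 in Ortho. The first 3 stages overlapped and every Ortho library lay below them. Birc2 fell by 0.55 on the log2 scale in Ortho against Pro (SE 0.09, limma adjusted p = 0.000218) and by 0.41 from Poly to Ortho (limma adjusted p = 0.00555), close to the median of all genes of -0.42 in the first of these comparisons. The Ortho value against Pro was -0.09 with hemoglobin genes removed (limma adjusted p = 0.442) and -0.15 with median centring (0.168), and the step from Poly was then -0.28 (0.0558) and -0.26 (0.0584). Baso and Poly against Pro did not pass (limma adjusted p = 0.381 and 0.218). With equal sums both passed as lower, at -0.27 in Baso and -0.31 in Poly (limma adjusted p = 0.0338 and 0.0164).

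Read against all genes, the 8 members stood as follows. In Baso against Pro, 1 member passed the test as higher (background 14.9% of the 12994 genes) and 1 as lower (42.1%), and 0 and 1 were called with a log2 fold change of at least 1 (1.82% higher and 8.54% lower). In Poly against Pro, 3 passed as higher (23.3%) and 3 as lower (42.7%), and 0 and 1 were called (3.59% and 12.8%). In Ortho against Pro, 1 passed as higher (22.7%) and 4 as lower (53.2%), and 1 and 3 were called (6.33% and 23.8%). From Baso to Poly, 1 passed as higher (6.58%) and 2 as lower (5.77%), and none was called (0.0616% and 0.454%). From Poly to Ortho, 0 passed as higher (4.43%) and 4 as lower (21.7%), and 0 and 1 were called (1.05% and 4.81%). The median log2 fold change in Ortho against Pro was -0.45 over the members and -0.42 over all genes, and from Poly to Ortho -0.30 and -0.08.

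The split of calls between directions depended on the scaling. Over all genes, 6.33% were called higher and 23.8% lower in Ortho than in Pro as deposited. These became 2.47% and 37.4% with equal sums, 15.3% and 8.88% with hemoglobin genes removed, and 16% and 9.95% with median centring. Casp1 kept a log2 fold change of 0.74 to 1.50 over all alternatives with 12 libraries, Casp2 of -1.84 to -1.03, Casp6 of -1.87 to -1.09 and Casp9 of -1.53 to -0.76. Each passed the test in all 20 alternatives, including those that left out a library. The plot of the Ortho against Pro fold changes shows the 4 scalings for each gene.

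**Figure D4:**
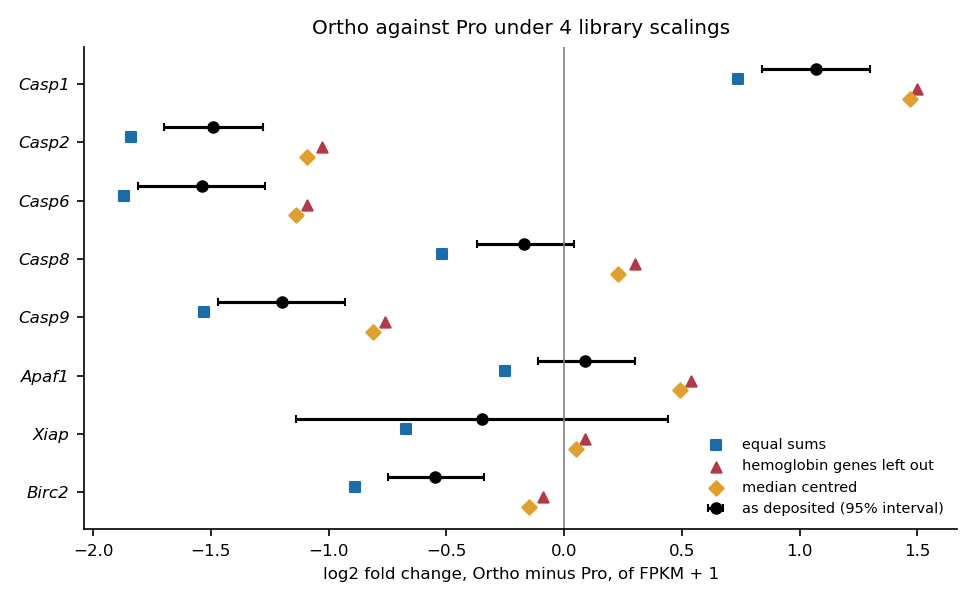
Log2 fold change of FPKM + 1 in Ortho minus Pro (horizontal axis) of the 8 genes with the libraries as deposited (black circles, with the 95% interval) and under 3 other scalings (coloured symbols). Casp1 stays above 0 and Casp2, Casp6 and Casp9 stay below 0 under all 4, whereas Casp8, Apaf1 and Xiap lie on both sides of 0 and Birc2 runs from -0.89 to -0.09.

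For each of the 4 genes called in Ortho against Pro, the 3 genes with the most similar pattern were found by Pearson's r of log2(FPKM + 1) over the 12 libraries. The libraries share their stages and scaling, so these values only describe likeness. They were Flt3, Rhob and Rhoq for Casp1 (r = 0.99, 0.989 and 0.987) and Tac2, Caskin2 and Ccdc6 for Casp2 (0.99, 0.988 and 0.987). For Casp6 they were Tsc2, Aggf1 and Ddb1 (0.988, 0.988 and 0.987), and for Casp9 Adam33, Smim5 and Xk (0.985, 0.985 and 0.983). Flt3, a cytokine receptor of early and lymphoid progenitors, went from 5.98 FPKM in Pro to 13.6 in Ortho. Xk, which encodes a red cell membrane protein, went from 26.1 to 7.4. Between members, r was 0.92 for Casp2 and Casp9 and -0.90 for Casp1 and Casp6.

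Other genes of the same pathways were taken from 7 lists of 47 genes, of which 42 could be tested. In Ortho against Pro, 17 rose, 16 fell and 9 did not pass the test, with a median log2 fold change of 0.16, and 4 of those that rose and 8 of those that fell were called. Values of the called genes are given by pathway. In the same comparison 22.7% of all genes passed as higher and 53.2% as lower, and 6.33% were called higher and 23.8% lower. The shares passing as higher and lower became 14.7% and 63.4% with equal sums. They were 34.4% and 34.8% with hemoglobin genes removed, and 34.5% and 35.5% with median centring. Genes that were not called are named as the most abundant of a list, as near-identical copies, where a count was small, or where their stages differed from those of the cell type markers. All but the most abundant were chosen after their values were seen.

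Apaf1 aside, the list for the apoptosome and mitochondrial release held 5 genes, of which Aifm1 and Endog are known to act without caspases. All 5 passed as lower in Ortho than in Pro, also under each of the 3 other scalings, and 4 were called. Htra2, a mitochondrial protease that antagonises IAPs, fell from 74.5 ± 3.72 to 26 ± 3.78 FPKM (SD, n = 3; limma log2 fold change -1.49, adjusted p = 1.67e-07). Diablo, which encodes the IAP antagonist SMAC, fell from 22.4 ± 2.06 to 7.3 ± 2.23 (limma log2 fold change -1.52, adjusted p = 3.18e-05). Aifm1, the gene of apoptosis-inducing factor, fell from 28.8 ± 7.21 to 8.76 ± 0.374 (limma log2 fold change -1.58, adjusted p = 2.25e-06), and Endog, a mitochondrial nuclease gene, from 7.6 ± 2.33 to 3.24 ± 0.847 (adjusted p = 0.000598). The fifth, cytochrome c (Cycs), fell by 0.77 (limma adjusted p = 5.16e-06).

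Of the other caspases listed, 1 could be tested. Casp4, another inflammatory caspase, was at 1.99, 2.5 and 2.55 FPKM in Pro and at 5.6, 4.66 and 4.91 in Ortho, with no overlap. It rose by 0.86 on the log2 scale (limma adjusted p = 0.000544), and by 0.57 with equal sums (limma adjusted p = 0.00855). Casp12 was below 0.1 FPKM in every library and was not tested, and Casp14 was not analysed here.

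In the PIDDosome, Pidd1, the platform protein of caspase-2, fell with Casp2. It was at 31.89, 33.13 and 29.23 FPKM in Pro and at 8.02, 8.22 and 6.26 in Ortho, with no overlap, a log2 fold change of -1.94 (SE 0.12, limma adjusted p = 7.64e-08). Pidd1 had already passed as lower in Baso against Pro (-0.73, limma adjusted p = 0.000334). Casp2 passed there only with equal sums, and the difference between the 2 genes was not tested. The adaptor Cradd was at -0.18 (limma adjusted p = 0.406).

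At the death receptors that activate caspase-8, 3 of 6 genes tested rose and 2 fell, with 2 to 3 higher and 1 to 2 lower under the other scalings. Tnfrsf1a, the gene of TNF receptor 1, rose from 19.7 ± 0.786 FPKM in Pro to 47.4 ± 14.1 in Ortho (limma log2 fold change 1.19, adjusted p = 0.000524). Its Ortho libraries were at 41.74, 37.07 and 63.47. The adaptor Fadd, by contrast, fell by 0.87 (limma adjusted p = 4.75e-05).

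On the inflammasome side, 6 of 9 genes tested rose with Casp1 and none fell. The number that rose was 3 with equal sums and 8 with hemoglobin genes removed or median centring. The most abundant was Gsdmd, which encodes the pore protein that caspase-1 releases, at 15.5 ± 0.878 FPKM in Pro and 23.1 ± 0.93 in Ortho (limma log2 fold change 0.54, adjusted p = 4.52e-05). With equal sums its value was 0.19 and did not pass (limma adjusted p = 0.077). Nek7, the NLRP3 partner and the only called gene of the list, was at 4.37, 3.16 and 10.03 FPKM in Pro and at 14.59, 14.41 and 14.23 in Ortho (limma log2 fold change 1.30, adjusted p = 0.0094). Nek7 differed widely between the replicates of Pro, Baso and Poly, whereas Xiap did so in Pro, Baso and Ortho. Neutrophil, monocyte and B cell markers, given above, were also higher in Ortho than in Pro, but not every gene of the list followed them at each stage. In Baso the markers stood at 1.66, 1.25 and 1.59 of their Pro means. Pycard, among the genes that rose, was at 8.66 FPKM in Pro, 7.44 in Baso and 11.7 in Ortho. The part of these other cells was not tested.

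Among the other IAP genes and partners, 6 of 9 rose and 2 fell, with 5 to 7 higher and 2 to 3 lower under the other scalings. Birc5, which encodes survivin, a mitotic protein of the IAP family, was between 194.42 and 298.09 FPKM in Pro, between 245.86 and 295.28 in Baso and Poly, and at 59.89, 63.11 and 62.55 in Ortho. It fell by 1.88 in Ortho against Pro (limma adjusted p = 1.18e-07). Birc3, the gene of cIAP2 and the closest relative of Birc2, rose from 9.12 ± 0.175 to 19.7 ± 2.61 FPKM (limma log2 fold change 1.03, adjusted p = 3.84e-05), and the rise remained at 0.68 with equal sums. Birc2 over the same stages fell or did not pass, depending on the scaling given above. Xaf1, an interferon-inducible antagonist of Xiap, rose from 6.71 ± 2.71 to 14.3 ± 3.98 (limma log2 fold change 1.02, adjusted p = 0.0135) and did not pass with equal sums (0.69, limma adjusted p = 0.0811). The Naip genes, 3 of the 6 that rose, are near-identical copies whose values are uncertain. Neutrophil, monocyte and B cell markers, at 2.01, 2.02 and 2.36 of their Pro means in Ortho, were higher there too, as were Casp4 and Tnfrsf1a. Not every gene that rose followed these markers at each stage. In Poly the markers stood at 2.18, 1.67 and 2.17. Arel1, among the genes that rose, was at 20.5 FPKM in Pro, 21.1 in Poly and 37.5 in Ortho. The part of these other cells was not tested.

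Among caspase substrates and GATA1, 6 of 10 genes fell and 1 rose, where 53.2% of all genes passed as lower and 22.7% as higher. Lmna, which encodes lamin A, the substrate of caspase-6, was at 91.9 ± 8.8 FPKM in Pro and 12.3 ± 0.732 in Ortho (limma log2 fold change -2.80, adjusted p = 2.22e-09). Gata1 fell from 131 ± 10.5 to 30.9 ± 2.76 (limma log2 fold change -2.04, adjusted p = 6.98e-09). Lmnb1, the most abundant of the list, fell by 0.60 (limma adjusted p = 7.18e-06), but was at -0.11 and did not pass with hemoglobin genes removed (limma adjusted p = 0.162). The gene that rose, Hspa1a, is a near-identical copy of Hspa1b, so its value is uncertain. Counts for this list moved with the scaling, to 0 higher and 8 lower with equal sums and to 4 higher and 4 lower with hemoglobin genes removed.

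**Figure D5:**
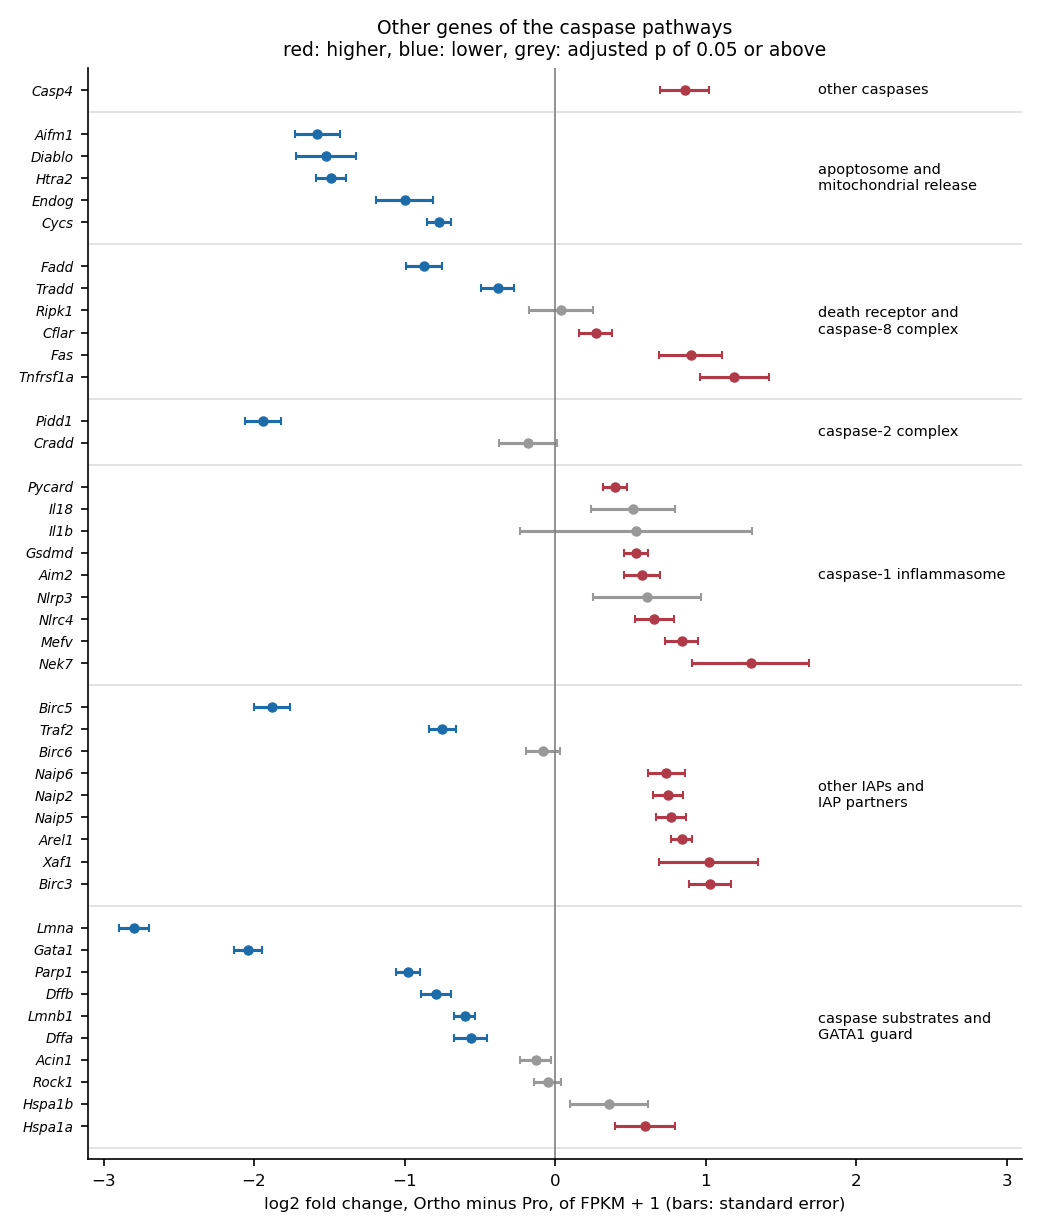
Log2 fold change of FPKM + 1 in Ortho minus Pro (horizontal axis, bars show the SE) of 42 genes in 7 lists of the caspase pathways; red points passed the test as higher, blue as lower and grey did not pass. All 5 genes of the apoptosome and mitochondrial release list lie below 0, 6 of 9 inflammasome genes passed as higher (3 with equal sums), and Lmna lies lowest at -2.80.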

How the data were processed

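RNA from 12 libraries, 3 for each of 4 stages, was analysed as FPKM. The authors trimmed reads with cutadapt and Trimmomatic, aligned them to mm10 with HISAT2, counted them with SAMtools and featureCounts, and deposited 1 FPKM value per gene and library. The tool for FPKM, the annotation release, strand setting and versions are not given in the sources used here, and the library kit differs between labels (NEBNext Ultra) and methods (KAPA Hyper Prep). DESeq2, with which the authors compared stages, works on counts and was left out.

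After removal of 1 repeated identifier, 29839 lines gave 29838 genes. Libraries were assigned by title. The filter kept genes at 1 FPKM or more in 3 or more libraries. limma 3.58.1 (R 4.3.3) was fitted to log2(FPKM + 1), pseudocount 1, using a variance trend, all 12 libraries and stage as the only term. Two-sided p-values were corrected over 12994 genes (Benjamini-Hochberg). A gene passed at an adjusted p under 0.05, and a passing gene was called where its log2 fold change reached 1 in either direction. The fit was tested on simulated data.

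In 5247 genes with low values, log2 ratios between libraries showed no steps (5.3% in the commonest bin), so depth is unknown. The members and lists were chosen with earlier results of these data known, and some pathway genes are not reported here and were left out of the list counts. All members, listed pathway genes called in Ortho against Pro, and the 3 genes most like each called member were named. Alternatives were pseudocounts of 0.1 and 5, no filter, a mean FPKM of at least 5, 3 other scalings, a replicate block and leaving out each library. Deviations from stage means of libraries with the same replicate number correlated at 0.156 to 0.319 among Baso, Poly and Ortho, which pairs them on the values alone, and at 0.00524 to 0.0968 with Pro. Positions were read from GENCODE M21 and upstream sequences from RefSeq with Python 3.11.15. Figures were drawn with matplotlib 3.10.9.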

Additional observations from a re-analysis of the deposited data

How the results depend on the processing

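Of the fold changes of the 8 genes in 5 comparisons, 454 of those recomputed without 1 library kept their direction and side of the threshold, 16 no longer passed the test, 6 newly passed it and 4 changed sign; under the other alternatives these numbers were 282, 11, 20 and 23. The cause of each change was not tested beyond the setting itself. Counts of called genes out of 8 moved as follows. In Baso against Pro the 1 call became 0 with a pseudocount of 5, with hemoglobin genes removed and with median centring, and the 2 genes that passed became 4 under each of the 3 other scalings. In Poly against Pro the 1 call became 2 with a pseudocount of 0.1 and 3 with hemoglobin genes removed or median centring, and ran from 1 to 2 with 1 library left out. In Ortho against Pro the 4 calls became 3 under each of the 3 other scalings (Casp1 lost with equal sums, Casp9 with the others) and 2 with a pseudocount of 5, which shrinks the changes of low genes. From Baso to Poly the 0 calls became 1 with a mean FPKM of at least 5, and ran from 0 to 1 with 1 library left out, while 1 to 4 genes passed against 3. From Poly to Ortho the 1 call, Xiap, became 0 with no filter or a pseudocount of 5, and ran from 0 to 1 with 1 library left out. With a replicate block in a fit of the 3 later stages, 1 gene, Xiap, was called from Baso to Poly against 0 without the block, and 12.6% of all genes passed as higher and 9.44% as lower against 6.58% and 5.77%. With the block over all 12 libraries Xiap was not called there (limma adjusted p = 0.0705), and no count of member calls changed. Neither block changed another call of a member. Signs turned with equal sums for Apaf1 in Baso (-0.05) and Ortho (-0.25) and for Casp9 in Baso (-0.10), all against Pro. Under removal of hemoglobin genes and median centring, respectively, they turned against Pro for Casp2 in Baso (0.16 and 0.15), Casp8 in Baso (0.07 and 0.06), Poly (0.29 and 0.21) and Ortho (0.30 and 0.23), Xiap in Baso (0.09 and 0.10) and Ortho (0.09 and 0.05), and Birc2 in Baso (0.20 and 0.20) and Poly (0.19 and 0.11), and from Poly to Ortho for Casp6 (0.08 and 0.11) and Casp8 (0.01 and 0.03). With 1 library left out, Casp6 from Poly to Ortho ran from -0.13 to 0.01 (above 0 without Poly replicate 1), Casp8 in Poly against Pro from -0.12 to 0.03 (above 0 without Poly replicate 3) and Xiap in Baso against Pro from -0.54 to 0.02 (above 0 without Baso replicate 2, and 0.01 without Pro replicate 1). With 3 libraries per stage and unknown depth, differences among the smaller values cannot be resolved.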

Other observations

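The deviation of Xiap from its stage means was compared with that of all genes tested over the 12 libraries, a comparison chosen after its values were seen. The genes most alike were Snord66 (r = 0.954), Sox6 (0.933) and Hist1h2bq (0.932), and the most opposite were Akap8 (-0.971), Cnppd1 (-0.96) and Rab26os (-0.96). These are the extremes of 12994 genes and are given as a description. Il1b, the gene of the interleukin that caspase-1 matures, was at 29.85, 46.44 and 44.86 FPKM in replicate 1 of Baso, Poly and Ortho and between 5.86 and 11.79 in replicates 2 and 3 of those stages, and was also chosen after its values were seen.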
